A study of Mus musculus with 20 samples.

Results

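The clustered protocadherins were examined through the restriction intervals in the region of mouse chromosome 18 that holds their clusters. Intervals of the deposited table were taken if they overlapped chr18:37080000-38010000 (mm9 assembly), a window of 930 kb that spans the alpha, beta and gamma clusters in this order. Membership was set by position. The window held 15 of the 50782 intervals of the table, and 12 of the 15 had enough reads to be tested. In the study, nuclei were taken from the hypothalamus of male mice of the inbred strain C57BL/6 at 2 ages, postnatal day 0 (P0, newborn) and postnatal day 21 (P21), and fluorescence sorting on NeuN, a protein of neuronal nuclei, divided them into stained (neurons) and unstained (non-neurons). The 4 groups were P0 neurons, P0 non-neurons, P21 neurons and P21 non-neurons, with 5 libraries each, 20 in all, described as biological replicates. Each sample pooled 2 hypothalami of one age, and no group had a treatment or an engineered allele. Non-neurons are a mixture of every cell type without NeuN, so a change in a group of nuclei and a change in its cell type makeup cannot be told apart.

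Clustered protocadherins are cell surface proteins of the cadherin family. In the alpha and gamma clusters, each of many variable exons has its own promoter and is spliced to constant exons at the end of the cluster, whereas beta genes are single exons. Individual neurons choose few promoters, and the resulting set of proteins marks the cell so that its branches recognise and avoid each other. Promoter choice is known to depend on distant enhancers, on the looping proteins CTCF and cohesin, and on DNA methylation, which silences promoters that are not chosen and hinders CTCF binding. The last genes of the alpha and gamma clusters (the C-type isoforms) are expressed more evenly among neurons than the others. The RefSeq gene table (GRCm38.p6) lists 14 Pcdha, 22 Pcdhb and 22 Pcdhg genes, with Slc25a2 and Taf7 between the beta and gamma clusters and Diaph1 after the last gamma gene. That table is of another assembly than the intervals. It was used for gene names and order alone, and no interval was assigned to a gene, exon or promoter.

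The assay reads methylation at CCCGGG sites. SmaI first cuts unmethylated sites, XmaI then cuts the methylated ones, and adaptors on the XmaI ends allow a stretch between neighbouring sites to be amplified when both its ends were methylated. A higher normalised read count at the same interval therefore stands for more methylation at its pair of sites, on a relative scale. Values are CPM, the share of reads of a library scaled to a common total, against library sizes set by TMM, a method that assumes most intervals do not differ. With age, 57.3% of all tested intervals in neurons and 54.3% in non-neurons had an edgeR adjusted p under 0.05. By these calls, which were themselves made with TMM scaling, the assumption did not hold for age. Whether this biased the scaling was not tested. Means are given ± SD over the 5 libraries of a group, and log2 fold changes ± SE. Libraries held between 5663740 and 9998110 reads, with the most in P21 neurons (7810593 to 9998110). The 15 intervals together held 3458 to 6622 reads per library, which is 0.0527% to 0.0816% of all reads. Reads carry no molecular identifiers, so counting error is a lower limit of the true error. The sort could not be checked against marker genes here, since the table names no gene.

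The intervals are numbered here from 1 to 15 along the chromosome. They were grouped by the first, middle and last 310 kb of the window. The first part held interval 1 (chr18:37166256-37167173, 917 bp), the touching intervals 2 (chr18:37205561-37205715) and 3 (chr18:37205715-37205917), and interval 4 (chr18:37249574-37249749). The middle part held the touching intervals 5 (chr18:37400303-37401579, 1276 bp) and 6 (chr18:37401579-37402046, 467 bp), interval 7 (chr18:37633552-37635523, 1971 bp) and interval 8 (chr18:37644280-37646646, 2366 bp). The last part held 7 intervals. These were interval 9 (chr18:37735617-37735817, 200 bp), interval 10 (chr18:37966038-37968219, 2181 bp), a chain of 4 touching intervals, and interval 15 (chr18:38002084-38004425, 2341 bp). The chain consisted of intervals 11 (chr18:37979678-37980096, 418 bp), 12 (chr18:37980096-37981220, 1124 bp), 13 (chr18:37981220-37981816, 596 bp) and 14 (chr18:37981816-37982602, 786 bp). Touching intervals share a cut site, and the 15 intervals used 25 distinct sites in all, so they are not independent of each other. They covered 15174 bases, 1.63% of the window, with gaps of up to 231.5 kb. The density of 16.1 intervals per Mb was near the 15.9 per Mb over chromosome 18.

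Read levels varied widely along the window, among intervals of 154 to 2366 bp. CPM is not corrected for interval length, so levels of different intervals do not rank their methylation. Mean CPM over all libraries was 226.9 at interval 1 and 243.3 at interval 6, above 96.7% and 97.1% of tested intervals. The level was 37.9 at interval 5, 19.9 at interval 7 and 5.87 at interval 8. Within the chain it was 22.9, 48.3, 50.7 and 20.1 CPM from interval 11 to 14. Intervals 9, 10 and 15 lay low, at 3.73, 0.95 and 2.51 CPM. Interval 10 exceeded the filter (a CPM of 1.42 in at least 5 libraries) in P21 neurons alone, and so entered the test through the group in which it is high. Counts, shares and medians of the tested intervals of the window are therefore given over the other 11. Values over all tested intervals keep every interval that passed the filter, also any that passed through a single group. The tests of interval 10 are taken from the fit without a filter, which kept all 44545 intervals with any read. Intervals 1 and 6 were highest in all 4 groups, as the plot of mean levels along the window shows.

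**Figure D1:**
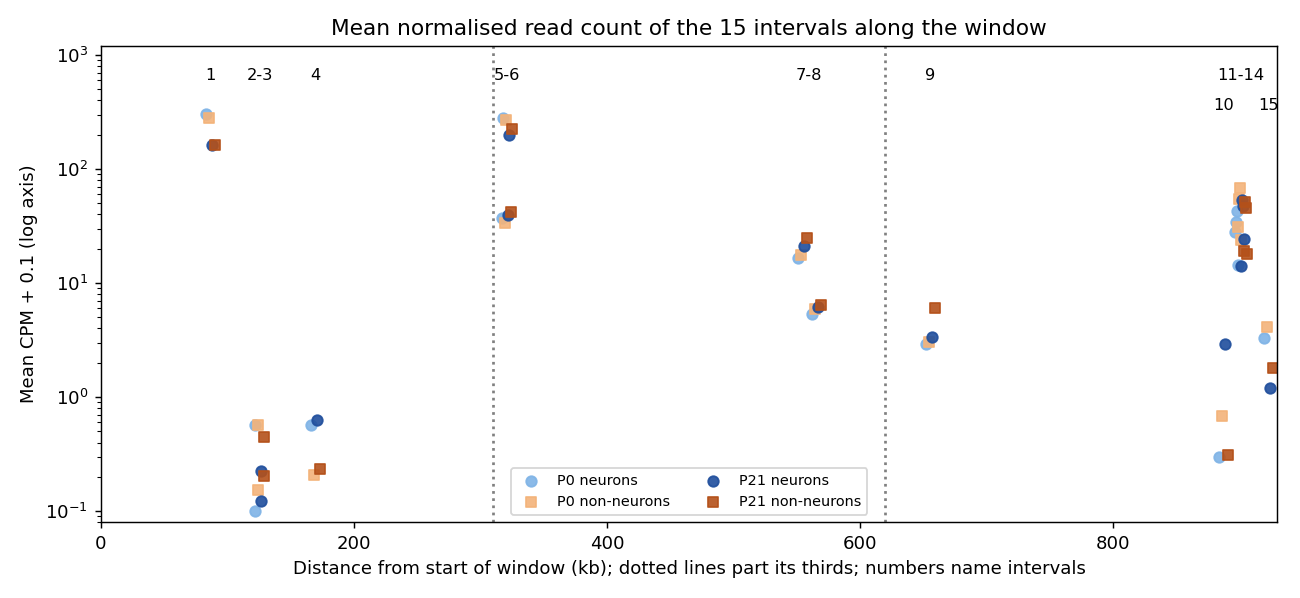
Mean CPM + 0.1 on a log axis for the 15 intervals against their distance from the start of the window in kb, one point per group (5 libraries each), with groups shifted sideways by a few kb so that points can be told apart. Intervals 1 and 6 have group means of 162 to 305 CPM, intervals 2 to 4 below 1 CPM, and the chain of intervals 11 to 14 between 14.1 and 67.6 CPM.

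Intervals 2, 3 and 4, all in the first part, were almost without reads and were not tested. Interval 2 (154 bp) had 48 reads over all libraries, with 0 to 7 per library. Interval 3 (202 bp) had 7 reads in all and none in the 5 P0 neuron libraries. A count of 0 in a single library, taken alone, allows an expected count of up to 3 reads. At interval 4 (175 bp) the P21 neuron libraries had 6, 5, 2, 4 and 7 reads, against 0, 0, 2, 3 and 0 in P21 non-neurons. P0 neurons had 5, 7, 0, 0 and 3 reads there and P0 non-neurons 0, 0, 4, 0 and 0. Every P21 neuron library thus held reads at interval 4, and the ranges of the groups overlap. Fitted without a filter, 0 of the 15 results of these 3 intervals over the 5 comparisons passed the test (edgeR adjusted p = 0.0797 to 1), and 3 had an unadjusted p under 0.05.

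The first comparison asked where neurons and non-neurons differ at birth. Intervals 12, 13 and 14, neighbours in the chain near the end of the window, had fewer reads in P0 neurons than in P0 non-neurons, by 1.57-, 1.58- and 1.65-fold. No other tested interval passed the test. The 3 intervals touch each other and so share sites. These 3 calls of 11 (27.3%), 0 higher and 3 lower, compare with 9.78% of all tested intervals called in this comparison, 6.92% higher and 2.86% lower. All 3 also had groups that did not overlap, which held for 9.4% of all tested intervals.

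At interval 12 the P0 neuron libraries had 34.1, 34.8, 38.2, 31.6 and 33.8 CPM and the P0 non-neuron libraries 52.7, 56.6, 58.8, 56.3 and 46.6 CPM. The highest neuron library stayed below the lowest non-neuron library. The log2 fold change was -0.65 ± 0.10 (edgeR adjusted p = 1.37e-06). At interval 13, P0 neurons had 41.0, 43.0, 46.3, 45.5 and 38.4 CPM and P0 non-neurons 71.9, 61.3, 77.3, 66.4 and 61.0, again without overlap (log2 fold change -0.66 ± 0.11; edgeR adjusted p = 1.11e-05). Interval 14 had 12.3, 16.8, 14.8, 14.2 and 13.5 CPM in the neuron libraries and 20.2, 25.5, 26.4, 22.2 and 24.3 in those of non-neurons, where the ranges are equally separate (log2 fold change -0.73 ± 0.13; edgeR adjusted p = 5.99e-05). Interval 11, which begins the chain and shares a site with interval 12, averaged 27.7 ± 3.23 CPM in P0 neurons versus 30.9 ± 3.88 in the non-neurons, a difference that did not pass the test (edgeR adjusted p = 0.561).

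Of the other tested intervals, the high intervals 1 and 6 had 0.14 ± 0.15 and 0.07 ± 0.11 as log2 fold changes at P0, inside the middle 50% of all tested intervals. Interval 10 had 6 reads in all P0 neuron libraries together and 19 in P0 non-neurons, with a log2 fold change of -1.51 ± 0.68 that did not pass the test (no filter, edgeR adjusted p = 0.257). The median log2 fold change of the 11 tested intervals was -0.16, against 0.01 for all tested intervals.

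**Figure D2:**
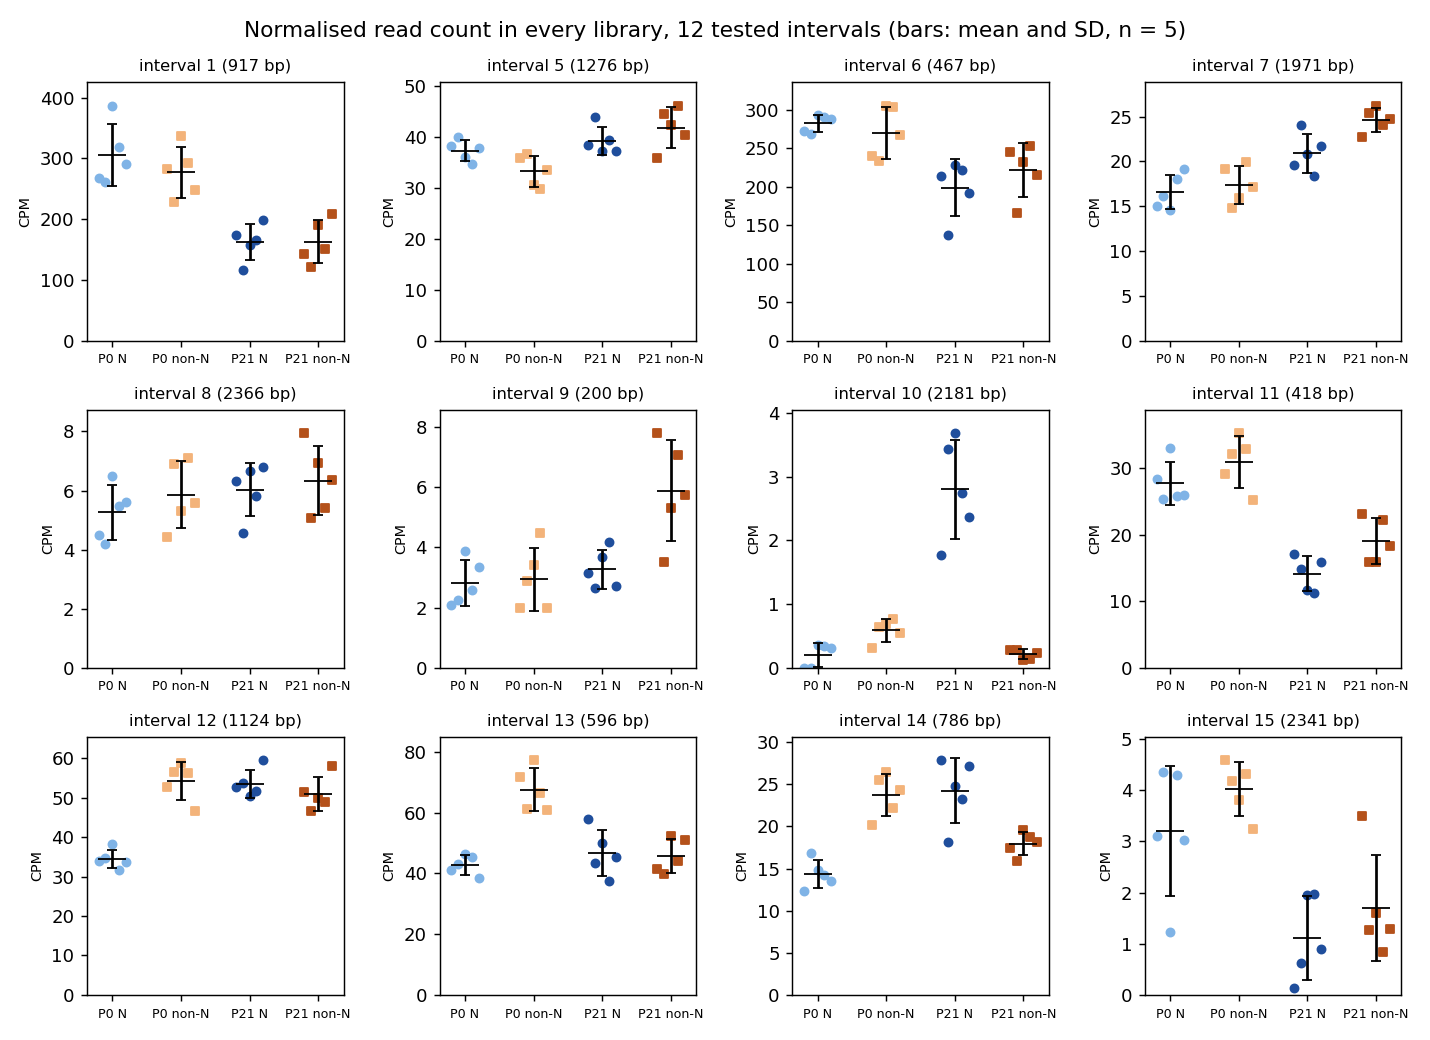
CPM of every library for the 12 tested intervals, grouped as P0 neurons (P0 N), P0 non-neurons (P0 non-N), P21 neurons (P21 N) and P21 non-neurons (P21 non-N). Horizontal bars are means and error bars SDs (n = 5). Intervals 12 to 14 show P0 neurons lowest among the group means, interval 10 shows P21 neurons above all other libraries, and intervals 1 and 11 show both P0 groups above both P21 groups.

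At P21 the same contrast gave another picture. Intervals 12 and 13 no longer passed the test, and interval 14 had turned to more reads in neurons. Intervals 9 and 11 had fewer reads in neurons, by 1.8- and 1.35-fold. In all 3 of 11 intervals were called (27.3%), 1 higher and 2 lower, against 35.8% of all tested intervals (20.8% higher, 15% lower). Groups overlapped at all 11, whereas 23.8% of all tested intervals had groups that did not.

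Interval 10 had 1.77, 3.43, 3.69, 2.75 and 2.37 CPM in the P21 neuron libraries, while the P21 non-neuron libraries had 0.28, 0.28, 0.12, 0.14 and 0.23. The lowest neuron library lies above every non-neuron library. The log2 fold change was 3.65 ± 0.50 (no filter, edgeR adjusted p = 8.51e-10). The reads behind it were few, 14 to 39 per library in P21 neurons and 1 to 2 in P21 non-neurons. At interval 14 P21 neurons had 27.9, 18.1, 24.8, 23.3 and 27.1 CPM and P21 non-neurons 17.4, 15.9, 19.5, 18.8 and 18.2, and one neuron library fell inside the non-neuron range (log2 fold change 0.43 ± 0.12; edgeR adjusted p = 0.00536). At interval 9, P21 neurons had 3.17, 2.64, 3.69, 4.18 and 2.71 CPM and P21 non-neurons 7.81, 3.51, 5.32, 7.09 and 5.75 (log2 fold change -0.85 ± 0.25; edgeR adjusted p = 0.00567), with overlapping ranges. Interval 11 averaged 14.1 ± 2.59 CPM in neurons and 19.0 ± 3.43 in non-neurons of this age (edgeR adjusted p = 0.0113).

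Intervals 12 and 13 had 53.6 ± 3.55 and 46.8 ± 7.57 CPM in P21 neurons against 51.0 ± 4.28 and 45.8 ± 5.65 in P21 non-neurons. Their log2 fold changes were 0.07 ± 0.09 and 0.03 ± 0.11. After removal of the trend of CPM with interval length in each library (the length trend), both were called lower in P21 neurons (-0.31 and -0.26) and interval 14 lost its call (0.07, edgeR adjusted p = 0.615), as it also did with upper-quartile factors (0.23, edgeR adjusted p = 0.107). The value at interval 9 was -0.55 without the length trend, still called. The split of calls depended on scaling, with 1 higher and 4 lower under library totals, 0 and 5 under upper-quartile factors, and 0 and 7 without the length trend. Library totals shifted all log2 fold changes of this comparison by -0.08 and upper-quartile factors by -0.20. The shares of all tested intervals called under these settings are not given here, so these splits cannot be set against the whole table. At interval 6, leaving out P21 non-neuron replicate 2 added a call (-0.25, edgeR adjusted p = 0.0497).

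Age was compared next within neurons. Between P0 and P21 the reads of neurons rose at intervals 7, 12 and 14 and fell at intervals 1, 6, 11 and 15. That is 7 of 11 (63.6%), against 57.3% of all tested intervals, of which 31% rose and 26.3% fell. Both high intervals, 1 and 6, were among those that fell. The changes at intervals 1, 6, 11, 12 and 14 left no overlap between ages, 5 of 11, against 41.6% of all tested intervals.

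Interval 10 went from 0, 0, 0.35, 0.34 and 0.30 CPM in P0 neurons to 1.77, 3.43, 3.69, 2.75 and 2.37 in P21 neurons, with every P21 library above every P0 library (log2 fold change 3.75 ± 0.54; no filter, edgeR adjusted p = 2.48e-09). With 0 to 2 reads per P0 library, the size of this change depends on the prior count of the fit. Interval 12 rose from 34.5 ± 2.38 to 53.6 ± 3.55 CPM (log2 fold change 0.64 ± 0.09; edgeR adjusted p = 2.91e-07; 0.40 with the length trend removed), and interval 14 from 14.3 ± 1.67 to 24.2 ± 3.88 CPM (0.75 ± 0.13; edgeR adjusted p = 3.68e-06). Interval 13 between them had 42.8 ± 3.24 and 46.8 ± 7.57 CPM and did not pass the test (0.13 ± 0.11; edgeR adjusted p = 0.314), though it was called a rise with library totals alone and with the length trend removed. Interval 11 in the same chain fell from 27.7 ± 3.23 to 14.1 ± 2.59 CPM (-0.97 ± 0.13; edgeR adjusted p = 8.09e-08). Every P0 neuron library lay above every P21 neuron library there.

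At interval 1 the P0 neuron libraries had 267, 262, 387, 319.5 and 291 CPM and the P21 neuron libraries 174, 116, 158, 165 and 199, a 1.88-fold fall (log2 fold change -0.91 ± 0.15; edgeR adjusted p = 2.23e-05). Interval 6 had 272, 269, 293, 291 and 288 CPM in P0 neurons and 214, 138, 229, 221 and 192 in P21 neurons (-0.51 ± 0.11; edgeR adjusted p = 0.00017; -0.32 with library totals alone). P21 neuron replicate 2, the deepest library, was the lowest of its group at both. Interval 15 fell from 3.20 ± 1.27 to 1.11 ± 0.82 CPM (-1.50 ± 0.40; edgeR adjusted p = 0.00136), with P0 neuron replicate 3 inside the P21 range. The rise of interval 7, from 16.6 ± 1.93 to 20.9 ± 2.18 CPM (0.33 ± 0.12; edgeR adjusted p = 0.0166), was less firm. It was not called without P0 neuron replicate 3 (edgeR adjusted p = 0.0521), without P21 neuron replicate 2 (edgeR adjusted p = 0.0614) or with upper-quartile factors, and it was 0.54 with library totals alone and turned to -0.18 with the length trend removed. Interval 5 had 37.3 ± 2.06 and 39.3 ± 2.77 CPM and no call, but was called a rise with library totals alone (0.28) and a fall with the length trend removed (-0.28).

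**Figure D3:**
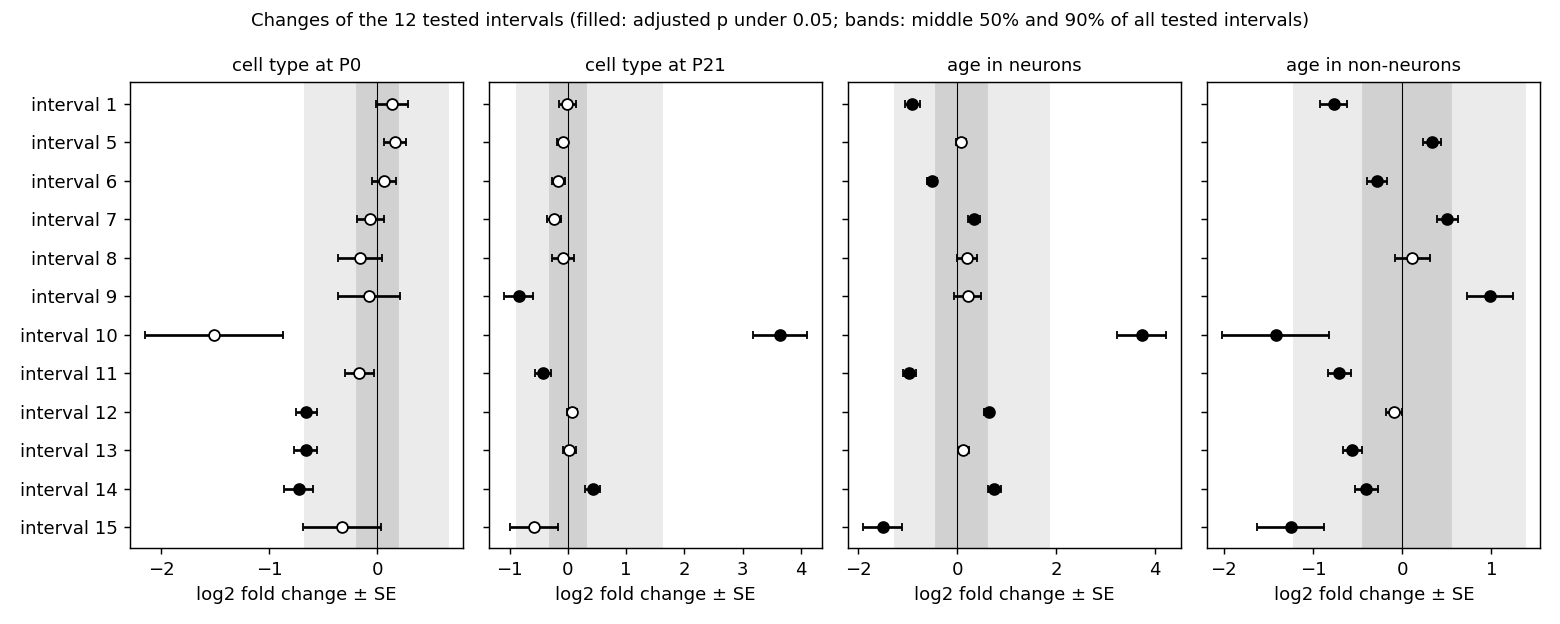
Log2 fold changes with SE for the 12 tested intervals in the 4 comparisons, neurons minus non-neurons (cell type) and P21 minus P0 (age). Filled points have an edgeR adjusted p under 0.05, and the grey bands hold the middle 50% and 90% of all tested intervals. Intervals 12 to 14 stand at -0.73 to -0.65 for cell type at P0, and interval 10, tested because P21 neurons exceeded the filter, stands at 3.65 for cell type at P21 and 3.73 for age in neurons.

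In non-neurons, reads rose with age at intervals 5, 7 and 9 and fell at intervals 1, 6, 11, 13, 14 and 15. These 9 of 11 (81.8%) compare with 54.3% of all tested intervals, 28.5% rising and 25.8% falling. Groups did not overlap at 5 of 11, against 35.5% of all tested intervals. The median log2 fold change was -0.28 over the 11 tested intervals and 0.03 over all tested intervals, while in neurons the medians were 0.13 and 0.06.

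Interval 1 fell in non-neurons as well, with 282, 228, 337, 292 and 247 CPM at P0 and 142, 121, 190.2, 152 and 208 at P21 (log2 fold change -0.77 ± 0.15; edgeR adjusted p = 0.000197). All P0 libraries lay above all P21 libraries. Interval 11 fell from 30.9 ± 3.88 to 19.0 ± 3.43 CPM (-0.70 ± 0.13; edgeR adjusted p = 2.32e-05). In the chain, intervals 13 and 14 fell, where neurons had no call and a rise. Interval 13 went from 71.9, 61.3, 77.3, 66.4 and 61.0 CPM at P0 to 41.4, 39.9, 52.4, 44.2 and 51.0 at P21 (-0.56 ± 0.11; edgeR adjusted p = 2.43e-05), and interval 14 from 23.7 ± 2.52 to 18.0 ± 1.40 CPM (-0.40 ± 0.13; edgeR adjusted p = 0.00693). With library totals alone the value at interval 13 was -0.34, and with the length trend removed -0.23, both still called, while interval 14 lost its call under both (-0.18, edgeR adjusted p = 0.204, and -0.13, edgeR adjusted p = 0.331). Interval 12 did not pass the test, at 54.2 ± 4.78 and 51.0 ± 4.28 CPM (-0.09 ± 0.09; edgeR adjusted p = 0.425). Interval 15 fell from 4.03 ± 0.52 to 1.70 ± 1.04 CPM (-1.25 ± 0.38; edgeR adjusted p = 0.00512).

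Of the rises in non-neurons, interval 9 went from 2.95 ± 1.05 to 5.90 ± 1.67 CPM (0.99 ± 0.26; edgeR adjusted p = 0.00147; 0.62 with the length trend removed) with overlapping ranges, and interval 7 from 19.1, 14.8, 15.9, 19.9 and 17.1 CPM to 22.7, 25.4, 26.2, 24.0 and 24.8 without overlap (0.51 ± 0.12; edgeR adjusted p = 0.000489). Interval 5 rose from 33.3 ± 3.04 to 41.9 ± 3.99 CPM (0.33 ± 0.10; edgeR adjusted p = 0.00445), and interval 6, which shares a site with it, fell from 269.7 ± 33.8 to 222 ± 35.1 CPM (-0.28 ± 0.11; edgeR adjusted p = 0.0307). The fall of interval 6 was not called with library totals alone (-0.06), with the length trend removed (-0.05), or without P0 non-neuron replicates 3 or 4 or P21 non-neuron replicates 2 or 5 in turn (edgeR adjusted p = 0.0606 to 0.117). Interval 10, with 19 reads at P0 and 8 at P21 over all non-neuron libraries, was not called lower without a filter (-1.42 ± 0.64; edgeR adjusted p = 0.0714). With the filter it was called (edgeR adjusted p = 0.0425), and of the 18 alternatives that tested it, 11 lost that call, among them the replicate block (edgeR adjusted p = 0.0539), limma-voom (0.0812), no filter and leaving out P0 non-neuron replicates 2 to 5 or P21 non-neuron replicates 3 to 5 in turn (0.0535 to 0.09). With library totals alone 3 intervals rose and 4 fell in non-neurons, and with the length trend removed 1 rose and 4 fell. The shares of all tested intervals under these settings are not given here. The rise of interval 5 was larger with library totals alone (0.55). The rises of intervals 5 (edgeR adjusted p = 0.0505) and 7 (0.375) lost their calls with the length trend removed.

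A further test, the interaction, asked whether the difference between neurons and non-neurons changed from P0 to P21. It did at intervals 12, 13 and 14, neighbours in the chain, and the difference moved toward neurons at each. These 3 of 11 (27.3%) compare with 14.1% of all tested intervals, 10.9% moving toward neurons and 3.24% away. The interaction was 0.73 ± 0.13 on the log2 scale at interval 12 (edgeR adjusted p = 5.3e-05; 0.46 with the length trend removed), 0.69 ± 0.15 at interval 13 (edgeR adjusted p = 0.000721) and 1.15 ± 0.18 at interval 14 (edgeR adjusted p = 3.64e-06). These 3 calls held under every alternative tried. At interval 10 the interaction was 5.16 ± 0.86 without a filter (edgeR adjusted p = 1e-06), where P0 neurons had 0 to 2 reads per library and P21 non-neurons 1 to 2. Interval 11 had an interaction of -0.27 ± 0.19 (edgeR adjusted p = 0.413) and was not called. With the length trend removed, 2 intervals were added on the other side, interval 5 (-0.48) and interval 6 (-0.35).

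The pattern of group means differed by interval within the chain, on a scale that keeps the length trend. At interval 12, P0 non-neurons, P21 neurons and P21 non-neurons had mean levels of 54.2, 53.6 and 51.0 CPM, and P0 neurons stood apart at 34.5 CPM. At interval 13, P0 non-neurons stood apart instead, at 67.6 CPM against 42.8 to 46.8 CPM in the other groups. At interval 14, P0 neurons had 14.3 CPM and P21 non-neurons 18.0, against 23.7 in P0 non-neurons and 24.2 in P21 neurons. At interval 11 levels parted by age, with 27.7 and 30.9 CPM at P0 and 14.1 and 19.0 CPM at P21. Intervals 12 and 13 were alike in the cell type difference at P0 (-0.65 and -0.66) and in the interaction (0.73 and 0.69). With the length trend removed, both were called lower in P21 neurons than in P21 non-neurons (-0.31 and -0.26). Interval 13 was then also called a rise with age in neurons (0.28).

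Ratios of reads between touching intervals of the same library do not depend on library scaling. They do keep any trend of reads with interval length, which was not removed from them. In every pair and both cell types, the mean ratio moved with age toward the longer interval. Whether interval length accounts for this was not tested. They were examined after the values were seen, as log2((reads + 0.5)/(reads + 0.5)) of the later interval to the earlier. For interval 12 to interval 11 the log2 ratio was 0.32 ± 0.10 in neurons and 0.81 ± 0.06 in non-neurons at P0, and 1.94 ± 0.23 and 1.43 ± 0.27 at P21. The ranges of P0 neurons (0.21 to 0.46), P0 non-neurons (0.74 to 0.89) and P21 non-neurons (1.14 to 1.67) were all separate from each other, and P21 neurons (1.62 to 2.20) overlapped with P21 non-neurons alone. Interval 12, the longer of the pair, thus gained reads on interval 11 with age in both cell types. Such separation between ages was found for 27.6% of 7206 touching tested pairs of the table in neurons and 22.4% in non-neurons, and between cell types at P0 for 5.01%.

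For interval 13 to interval 12 the log2 ratio was 0.31 ± 0.13 and 0.32 ± 0.14 in P0 neurons and non-neurons and -0.21 ± 0.26 and -0.16 ± 0.14 at P21, lower at P21 without overlap in either cell type and with overlapping ranges between cell types. For interval 14 to interval 13 it was -1.58 ± 0.15 in P0 neurons and -0.95 ± 0.24 in P21 neurons, without overlap, and -1.51 ± 0.23 and -1.34 ± 0.11 in P0 and P21 non-neurons, with overlap. For interval 6 to interval 5 it was 2.92 ± 0.13 in P0 neurons and 2.32 ± 0.39 in P21 neurons, without overlap, and 3.01 ± 0.31 and 2.40 ± 0.32 in P0 and P21 non-neurons, with overlap. Touching intervals called in opposite directions were found at 1 of the 4 tested pairs with age in neurons (interval 11 fell, interval 12 rose) and at 1 with age in non-neurons (interval 5 rose, interval 6 fell). Over the table, 5.93% and 5.43% of touching tested pairs were called in this way. Between cell types, 0 of the 4 pairs were called in opposite directions at either age, against 0.0416% and 2.07% of all tested pairs.

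**Figure D4:**
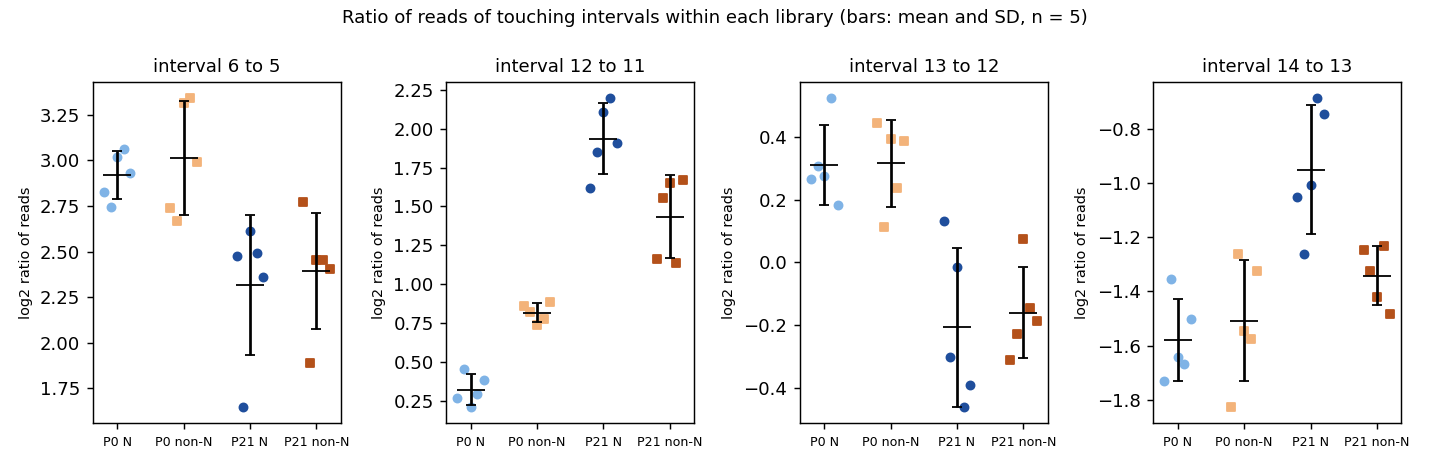
Log2 ratio of reads of each touching pair of tested intervals, later to earlier along the chromosome, in every library of the 4 groups (labels as for the CPM of every library). Bars are means and SDs (n = 5). The ratio of interval 12 to interval 11 runs from 0.32 in P0 neurons to 1.94 in P21 neurons.

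Interval 8 was the one tested interval called in no comparison. It averaged 5.26 ± 0.93 CPM in neurons and 5.86 ± 1.12 in non-neurons at P0, and 6.03 ± 0.90 and 6.34 ± 1.17 at P21. Summed over the intervals of each part, the first 310 kb went from 306 ± 50.7 CPM in P0 neurons to 163 ± 30.4 in P21 neurons, almost all of it interval 1. Non-neurons had 278 ± 42.5 and 163 ± 35.7 there. The middle part had 342 ± 11.2, 326 ± 31.6, 265 ± 33.2 and 295 ± 34.3 CPM in P0 neurons, P0 non-neurons, P21 neurons and P21 non-neurons. In the last part P0 non-neurons were highest, at 184 ± 15.3 CPM (162.8 to 205.7), with 126 ± 7.49 in P0 neurons, and 146 ± 11.6 and 142 ± 10.9 in neurons and non-neurons at P21.

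The nearest intervals outside the window lay 186.3 kb before it and 112.3 kb after it. The one before (chr18:36892579-36893730) averaged 2.01 ± 1.30 CPM in neurons and 1.43 ± 0.78 in non-neurons at P0, and 4.17 ± 1.82 and 4.59 ± 1.78 at P21. The one after (chr18:38122255-38124032) had 25.0 ± 4.23, 27.1 ± 6.08, 22.6 ± 2.04 and 28.2 ± 4.91 CPM. The members nearest to the borders, intervals 1 and 15, are described above.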

How the data were processed

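The 20 libraries were made by amplification of methylated restriction fragments and sequenced. The table the authors deposited holds raw read counts per interval between SmaI/XmaI sites, judged to be counts because they are whole numbers with unequal totals. Per the submitters' processing notes, reads were handled with FastQC 0.10.1, cutadapt and Bowtie 0.12.9 on mm9. The rule for counting reads within intervals and the handling of reads with more than 1 match, which the similar protocadherin exons may give, are not stated there. Column names were matched to labels by age, replicate number and letter (N for neurons, G, taken as glia, for non-neurons), with 0 columns of other samples.

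Of all 50782 intervals, 26679 passed edgeR's filterByExpr (edgeR 4.0.16; count minimum 10, total minimum 15). After TMM scaling, the 4 group means were fitted together (glmQLFit, robust; glmQLFTest; R 4.3.3). Benjamini-Hochberg adjusted p-values cover all tested intervals, and those under 0.05 were called. The SE is the log2 fold change divided by the square root of F. Replicates of a group correlated at 0.964 to 0.983 and differed by more than counting error (chi-square per degree of freedom 2.0 to 9.31 over 40 pairs). Alternatives were other scalings (RLE, upper-quartile, library totals), no filter, at least 20 reads in 5 libraries, DESeq2 1.42.0, limma-voom (limma 3.58.1), only the groups compared, a replicate block, the lowess trend on interval length removed (span 0.2), and each library left out. The window and the tests were chosen with earlier results of these data known.

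Intervals named are those with separate groups and the 5 largest called changes per direction and comparison (the interaction without the condition on separate groups), the 2 highest levels and the steadiest interval per part of the window. The others are given because the window holds so few. Gene lists of protocadherin regulators and non-clustered protocadherins were not run, since no annotation of mm9 was used here. Plots were drawn with matplotlib 3.10.9.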

Additional observations from a re-analysis of the deposited data

Results flagged for a closer look

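The difference between neurons and non-neurons changed with age at 3 of 11 intervals (27.3%), by a test of the interaction (edgeR quasi-likelihood). Of all tested intervals 14.1% were called in this test, 10.9% moving toward neurons. The 3 intervals touch each other and share sites, so they are not independent. The value was 0.73 ± 0.13 at interval 12, 0.69 ± 0.15 at interval 13 and 1.15 ± 0.18 at interval 14 (log2 scale, SE), with edgeR adjusted p-values of 5.3e-05, 0.000721 and 3.64e-06. Interval 10 is left out of this count because it passed the filter through P21 neurons alone, where it is high. Its value was 5.15 ± 0.80 with the filter and 5.16 ± 0.86 without one (edgeR adjusted p = 1e-06).

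Single libraries stood far from the other 4 of their group (Dixon's ratio above 0.71) in 4 of 59 groups of 5, all at the intervals with the fewest reads. Chance flags about 1 in 20 groups of independent, normally distributed values. In 3 of these 4 groups the other libraries were all at 0, which sets the ratio to its maximum, so that rate is no comparison for them. The remaining group, P0 neurons at interval 2, held counts of 1 to 7 reads, for which the rate need not hold either. At interval 2, P0 neuron replicate 4 had 1.20 CPM (7 reads), with the next at 0.35. At interval 3, P0 non-neuron replicate 3 had 0.27 CPM (2 reads) and P21 neuron replicate 5 had 0.11 CPM (1 read), and at interval 4, P0 non-neuron replicate 3 had 0.54 CPM (4 reads).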

How the results depend on the processing

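Of 29 called interval results (12 intervals, 5 comparisons, interval 10 included here and in the counts below), 22 were called in the same direction under all alternatives that tested them. The exceptions were interval 14 for cell type at P21, interval 7 for age in neurons, and intervals 5, 6, 7, 10 and 14 for age in non-neurons. Shares over all tested intervals are given for the main fit alone, so counts under the alternatives cannot be set against the whole table. Removal of the length trend moved the number called at P21 from 4 to 8 and in non-neurons from 10 to 6. It also reversed values: for cell type at P21 to -0.31 at interval 12 and -0.26 at interval 13, and for age in neurons to -0.28 at interval 5 and -0.18 at interval 7. All calls of cell type at P0 and of the interaction held. Leaving out each library in turn, the number called was 3 for cell type at P0, 4 to 5 for cell type at P21, 7 to 8 and 8 to 10 for age in neurons and non-neurons, and 4 for the interaction. Library totals alone shifted all log2 changes by 0.20 with age in neurons and 0.22 in non-neurons, and upper-quartile factors shifted those of cell type at P21 by -0.20 and the interaction by -0.10. The stricter filter left interval 10 out. With no filter, intervals 2 to 4 were also fitted.

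Replicate numbers are shared by the groups, but the labels do not say that they mark a shared pool. Deviations of same-numbered libraries of one age correlated at -0.007 to 0.322 over 10 pairs. Each neuron library was set against the 5 non-neuron libraries of its age, and 4 of the 10 correlated best with their own number. The value of 0.322 was that of P21 replicate 2, whose neuron library reached at most -0.0045 with other numbers. Between ages, same-numbered libraries of one cell type correlated at -0.083 to 0.123 over 10 pairs, and 3 of the 10 P0 libraries correlated best with their own number. The replicate block fitted a single effect per replicate number over both ages. It therefore does not test a pairing of neurons and non-neurons within an age. With this block, 3, 4, 8, 9 and 4 intervals were called in the 5 comparisons. The fall of interval 10 in non-neurons (-1.40) was the one call lost among the 12 intervals. Depth limits intervals 2, 3, 4 and 10, which had 7 to 168 reads each over all libraries.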
